A study of Mus musculus with 64 samples.

Results

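The mitochondrially encoded genes were the 37 rows of the count table whose symbol starts with mt-, out of 39152 named rows. They comprised 13 protein-coding genes, 2 ribosomal RNA genes and 22 transfer RNA genes, the whole gene content of mouse mitochondrial DNA, and were chosen by name alone. They were followed in 64 RNA-seq libraries, 1 from the right ventricle (RV) and 1 from the left ventricle (LV) of each of 32 mice. The mice were C57BL6 animals carrying floxed alleles of Pkp2, the gene of the desmosomal protein plakophilin 2, and all were given tamoxifen. In Cre-positive animals a tamoxifen-activated Cre driven by the cardiomyocyte αMyHC promoter deletes Pkp2, so the deletion is limited to cardiomyocytes while the libraries hold RNA of all cells of the ventricle.

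The WT group (9 mice) were Cre-negative Pkp2 fl/fl littermates given the vehicle HBSS, and the Pkp2-cKO group (4 mice, cKO below) were Cre-positive and given HBSS. In 3 further groups Cre-positive mice received a single retro-orbital dose of AAV9:mPkp2, a viral vector carrying mouse Pkp2: 3E13 vg/kg (8 mice, the 3E13 group) or 1E14 vg/kg (5 mice, the 1E14 group) 1 week before tamoxifen according to the labels, or 1E14 vg/kg in the group named for 2.5 weeks (6 mice, the 2.5wk group), which the labels place after tamoxifen. The study's text gives the timing of the first 2 vector groups both as before and as after tamoxifen. Mice were 3 to 10 months old at the start. WT and vector-treated hearts were collected 51 weeks after tamoxifen and cKO hearts at 4 weeks, so in every comparison with cKO the genotype or treatment cannot be told apart from the time since induction. In bulk ventricle, fewer cardiomyocytes and less RNA per cardiomyocyte cannot be told apart either.

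Mitochondrial DNA is a circular genome kept in many copies per cell, and cardiomyocytes, which depend on oxidative phosphorylation, carry a great deal of it. Both strands are transcribed as long precursor RNAs that are cut at the tRNAs, which releases the rRNAs of the mitochondrial ribosome, the tRNAs, and mRNAs for subunits of respiratory complexes I, III and IV and of ATP synthase (complex V). Transcription, RNA maturation and translation depend on proteins encoded in the nucleus, and a single protein-coding gene, mt-Nd6, lies on the light strand.

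The files held estimated counts, and library totals ranged from 7962690 to 14554560 with a median of 11462175. Pkp2 itself was lower in cKO than in WT (log2 fold change −1.29 ± 0.22 (SE) in RV and −1.51 ± 0.19 in LV) and higher than in WT in all vector groups (0.99 in RV and 0.65 in LV for the 3E13 group, 3.11 in RV and 2.89 in LV for the 1E14 group, and 3.68 and 3.60 for the 2.5wk group). The libraries of 1 animal of the 2.5wk group, labelled PKP2_m1e14_2.5wk_5814, went against each other: Xist was at 3073 and Ddx3y at 0 CPM (counts per 1000000 nuclear counts) in its LV library but at 262 and 98.8 in its RV library, which goes against both coming from 1 mouse, and results of that group are given with and without it below where they change. The RV library of animal WT_HBSS_5819 held Myl7, an atrial gene, at 59.8 CPM. All 9 cardiomyocyte markers were detected in every group. Their sum, at least 7561 TPM in any library, was above that of any other marker list in every group.

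Where the sequences are identical, the RNA of 7 mitochondrial genes could not be separated from that of near-identical copies in nuclear DNA. The copies cover 31.26% of mt-Co1, 63.57% of mt-Nd4 and 98.99 to 99.87% of the other genes. The copies, annotated as Gm28439, Gm10222, Gm28438, Gm28437, Gm10925, Gm28661 and Gm29216, lie together on the minus strand of chromosome 1 between 24650616 and 24655278 (GRCm39) and correspond to mt-Nd4, mt-Nd4l, mt-Nd3, mt-Co3, mt-Atp6, mt-Co2 and mt-Co1. In 5 pairs the aligned sequences were identical, in mt-Nd3 and Gm28438 the identity was 99.71%, and in mt-Co1 and Gm29216 it was 99.793%. The first 60 bases of mt-Co3 (chrM:8607-8666, plus strand) show what a 50-base read meets in an identical pair, and the windows of mt-Nd3 (chrM:9459-9518) and mt-Co1 (chrM:6390-6449) show the single bases that tell the other copies apart, in capitals. In Gm28438 the substitution is T3C and in Gm29216 the one shown is A1066T, with positions counted from 1 at the start of the mitochondrial gene and the mitochondrial base given first.
mt-Co3 and Gm28437: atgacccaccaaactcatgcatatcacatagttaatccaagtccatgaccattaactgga
mt-Nd3: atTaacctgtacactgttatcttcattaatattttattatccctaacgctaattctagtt
Gm28438: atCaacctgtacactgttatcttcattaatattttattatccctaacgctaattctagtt
mt-Co1: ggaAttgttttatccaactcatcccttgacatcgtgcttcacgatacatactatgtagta
Gm29216: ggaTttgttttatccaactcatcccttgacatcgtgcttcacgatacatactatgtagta

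How the quantification divided each pair differed from gene to gene and from library to library. Of the counts of mt-Co3 and its copy together, 76.1 to 96.8% (median 90.9%) were assigned to the copy, so that mt-Co3 alone held only 1.23% of the mt- counts. For mt-Co2 the share on the copy ran from 0.0641 to 87.6% (median 5.02%), for mt-Nd4l from 0 to 80.8% (median 47.7%) and for mt-Nd3 from 0.754 to 53.2% (median 3.07%). mt-Nd4 lost up to 30.7% and mt-Atp6 up to 14.3% of its pair's counts, while mt-Co1 lost almost nothing (median 7.87e-05%). The copies together took 2.64 to 5.81% of all counts in a library. Levels of these 7 genes are therefore given below for the gene and its copy together ("with copy"). Fold changes are those of the gene's own row unless marked as with copy, and a call that changes with the copy is marked.

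**Figure D1:**
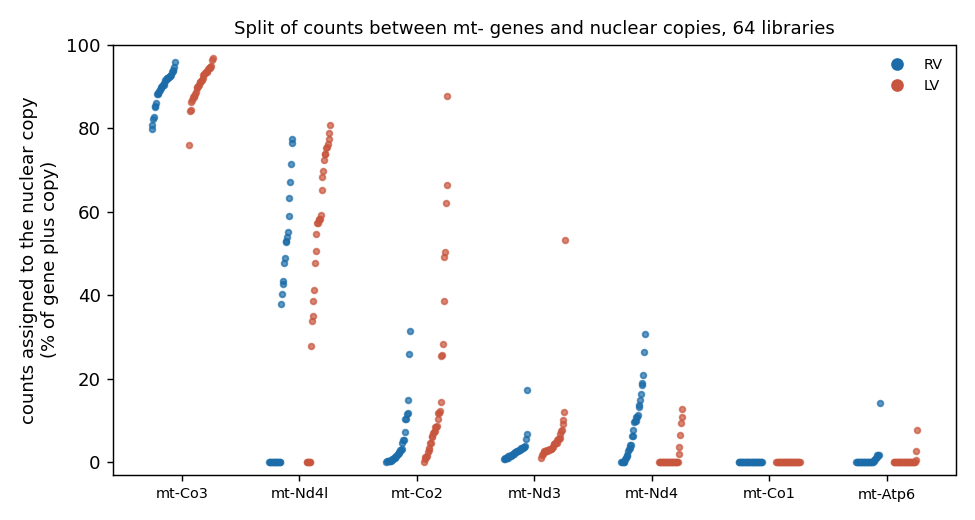
Percent of the counts of each mitochondrial gene and its near-identical nuclear copy that were assigned to the copy, for 7 pairs, with 1 point for each of the 64 libraries (RV blue, LV red). Most mt-Co3 counts sat on the copy (76.1 to 96.8%), and the mt-Nd4l points were spread from 0 to 80.8%. The mt-Co2 points had a median of 5.02% and reached 87.6%, and the mt-Co1 points lay at 0.

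The 22 tRNA genes were close to absent. No count was assigned to 19 of them in any library, mt-Tm reached 67 counts over 28 libraries with at most 8 in one, mt-Tv 6 counts in 4 libraries and mt-Tl1 2 counts in 1 library. A library with 0 counts allows a share of up to 2.06e-05 to 3.77e-05% of all counts for such a gene, taking 3 counts of its total as the limit and covering counting error only. The 22 tRNA genes entered no fit and the 15 remaining genes, 13 protein-coding and 2 rRNA, were tested.

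Within the mt- counts of a library (with copies), mt-Co1 (M:5328-6872), the catalytic subunit of cytochrome c oxidase, held 41.6 ± 3.64% (SD, n = 64) and thus 14.2% of all counts, from 9.74 to 18.2%. The 2 other complex IV subunits, mt-Co3 and mt-Co2, held 10.9 ± 1.63% and 5.18 ± 0.854%. Of the 7 complex I subunits, mt-Nd4 held 9.96 ± 1.28%, mt-Nd1 5.42 ± 0.809%, mt-Nd5 5.13 ± 1.24%, mt-Nd2 2.88 ± 0.689%, mt-Nd3 1.05 ± 0.154%, mt-Nd4l 0.837 ± 0.143% and mt-Nd6 0.819 ± 0.355%. mt-Cytb, the complex III subunit, held 6.73 ± 0.458%, and the ATP synthase subunits mt-Atp6 and mt-Atp8 5.93 ± 0.678% and 0.440 ± 0.133%. The rRNAs mt-Rnr2 (16S) and mt-Rnr1 (12S) held 1.68 ± 0.820% and 1.46 ± 0.724%. The sources name a kit that removes ribosomal RNA beside a polyA protocol, so these shares are not read as the rRNA content of the tissue.

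Corrected for length, as shares of the TPM of the mt- genes, the order of the genes was much the same in every group. mt-Co1 stood first in all 10 combinations of group and ventricle, with 23.8 ± 2.94% over the 64 libraries, and mt-Co3 second in 9 of 10 with 12.1 ± 2.18%. mt-Atp6 (9.65 ± 0.965%), mt-Co2 (9.05 ± 0.977%) and mt-Atp8 (8.69 ± 2.35%) followed and differed from each other by less than the SD over libraries, so their order is not resolved. mt-Nd4l (7.04 ± 1.04%), mt-Nd4 (6.19 ± 0.640%) and mt-Nd3 (5.06 ± 0.864%) came next, then mt-Cytb (4.36 ± 0.336%), mt-Nd1 (4.11 ± 0.578%) and mt-Nd6 (3.09 ± 1.31%). Within this stretch mt-Nd4l and mt-Nd4, mt-Nd3 and mt-Cytb, mt-Cytb and mt-Nd1, and mt-Nd1 and mt-Nd6 each differed by less than the larger of their SDs. mt-Nd5 (2.46 ± 0.518%) and mt-Nd2 (2.21 ± 0.489%) also differed by less than their SDs. mt-Rnr1 (1.24 ± 0.620%) and mt-Rnr2 (0.958 ± 0.468%) were last in every combination but the cKO RV, where mt-Rnr1 was 11th, mt-Rnr2 14th and mt-Nd2 15th. mt-Atp8 overlaps mt-Atp6 by 43 bases and mt-Nd4l overlaps mt-Nd4 by 7 on the same strand, so reads in those bases fit both genes.

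The mt- genes as a whole took between 16.6 and 40.2% of a library's counts. In WT the share was 23.7 to 34.4% in the RV (median 28.4%) and 27.7 to 40.2% in the LV (median 37.8%). In the 4 cKO mice it was 22.9, 24.2, 25.2 and 25.2% in the RV and 25.1, 32.6, 33.8 and 34.4% in the LV. The cKO RV libraries thus sat in the lowest part of the WT RV range and overlapped it, with a mean of 24.4 ± 1.07% (SD, n = 4) against 29.4 ± 3.63% (n = 9), a difference of −5.01 percentage points (two-sided exact permutation test, p = 0.0266, adjusted p = 0.144 over 23 such comparisons). No comparison of this share passed the adjustment. The smallest adjusted p, 0.122, belonged to the 3E13 RV against cKO RV (29.5 ± 3.06% against 24.4%, exact permutation test), to RV against LV in WT (−6.20 percentage points, exact permutation test) and to RV against LV in the 1E14 group (−4.35 percentage points, exact permutation test). The 3E13 LV lay at 23.2 to 39.8% and its mean of 29.9 ± 6.06% was −5.72 percentage points from that of WT LV (exact permutation test, adjusted p = 0.144). The 1E14 group (28.9 ± 2.91% in RV, 33.2 ± 1.86% in LV) and the 2.5wk group (29.8 ± 4.08% and 29.3 ± 7.89%) overlapped WT in both ventricles. As a share of TPM, which weights short genes more, the cKO RV fell short of WT RV by a larger margin (−13.8 percentage points, exact permutation test, adjusted p = 0.0232) and the difference passed.

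**Figure D2:**
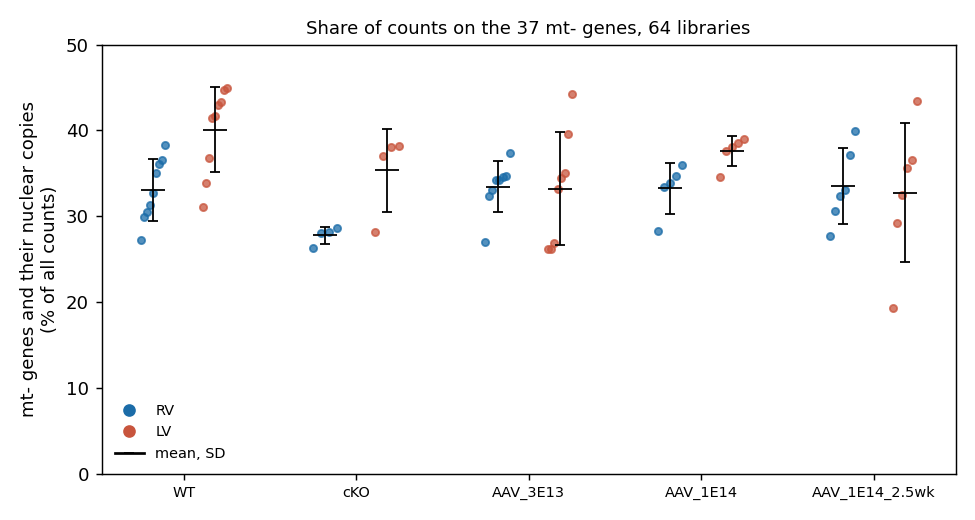
Share of all counts on the 37 mt- genes and their nuclear copies (percent, vertical axis) in each of 64 libraries, by group and ventricle (RV blue, LV red), with the mean and SD in black. The cKO RV has the lowest mean (27.8%, against 33.1% in WT RV) and the smallest SD, and the WT LV has the highest mean (40.1%).

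Differences in single genes were tested with edgeR's quasi-likelihood test on a scale set by all rows other than the mt- genes, and a gene was called at a Benjamini-Hochberg adjusted p under 0.05 over all genes tested. Levels of single genes are in CPM, counts per 1000000 nuclear counts after TMM scaling of the libraries, while marker sums are in TPM. The nuclear copies counted among those rows, so mitochondrial reads assigned to them entered the scale, whereas in the fits with copies their rows were removed from it. A second scale, set by the mt- genes and fitted without adding the copies, asks only whether a gene changed relative to the other mt- genes. It raised the median log2 fold change of all genes by 0.54 in cKO RV, 0.64 in cKO LV and 0.69 in 3E13 LV relative to WT, and directions on it are read relative to that shift.

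In the RV, 10 of the 15 tested mt- genes were lower in cKO than in WT and none was higher, while 42.4% of all 14165 genes tested were called and 20.4% were called lower (edgeR). DESeq2 called 12 mt- genes lower. The median log2 fold change was −0.79 over the 15 mt- genes and 0.02 over all genes.

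Of the 7 complex I subunits 6 were lower. mt-Nd6, on the light strand (M:13552-14070), measured 1059, 1318, 1710 and 1793 in the cKO RV against 3967 to 7602 (median 5262) in WT RV, a log2 fold change of −1.83 ± 0.20 (SE, edgeR adjusted p = 7.72e-06), with every cKO library well below every WT library. mt-Nd5 measured 9380, 9545, 10782 and 12159 against 13246 to 34370 (median 21571), again without overlap (−1.10 ± 0.27, adjusted p = 0.00446). mt-Nd3 with copy measured 2470, 3013, 3258 and 3447 against 4021 to 6701 (median 5714), also without overlap. Its own row changed by −0.83 ± 0.16 (edgeR adjusted p = 0.000896). mt-Nd2 (−0.95 ± 0.29, adjusted p = 0.0151) fell as well, and its highest cKO libraries, at 6771 and 7063, lay within the WT range of 6129 to 19526. mt-Nd4l fell by 1.32 on the log2 scale, or by 0.91 with its copy, and mt-Nd4 by 0.79, or by 0.90 with its copy, each called on either count. The call of mt-Nd4 alone was lost without animals PKP2_HBSS_2052 or PKP2_HBSS_3217 or animal WT_HBSS_5819 (edgeR adjusted p = 0.0681, 0.0836 and 0.05). mt-Nd1 was the 1 complex I subunit not called (−0.51, adjusted p = 0.0774).

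The other complexes moved less evenly. In ATP synthase, mt-Atp6 with copy measured 14743, 14815, 16367 and 17950 in the cKO RV against 20387 to 38907 (median 29042) in WT RV, with no overlap. Its own row changed by −0.92 ± 0.21 (edgeR adjusted p = 0.00254). mt-Atp8 (−1.01 ± 0.28, adjusted p = 0.0081) measured 641, 864, 882 and 1235 against 1029 to 3117 (median 1767), and 1 cKO library reached into the WT range. mt-Cytb, the subunit of complex III, fell by 0.68 ± 0.20 (adjusted p = 0.0119), with 1 cKO library at 23075, just above the lowest WT value of 22984. In complex IV, mt-Co2 was called on its own row (−0.59, edgeR adjusted p = 0.0357) and not with its copy (−0.45, adjusted p = 0.0854), and the call was lost without any 1 of 7 of the 13 libraries (adjusted p up to 0.0919). mt-Co1 (−0.37 ± 0.18, adjusted p = 0.103) and mt-Co3 with copy (−0.33 ± 0.17, adjusted p = 0.128) did not pass, and the cKO values of mt-Co1, at 130966, 132869, 137412 and 143535, just reached the WT range of 141638 to 224754. The rRNAs did not pass (mt-Rnr1 −0.56, adjusted p = 0.132, and mt-Rnr2 −0.16, adjusted p = 0.694).

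Relative to the other mt- genes, 4 of the 10 remained called in the cKO RV, all lower: mt-Nd6 (−1.32), mt-Nd4l (−0.79), mt-Nd5 (−0.51) and mt-Atp6 (−0.35). The values of mt-Nd4l and mt-Atp6 are of their own rows. Over all libraries 0 to 80.8% of the counts of mt-Nd4l and its copy sat on the copy. The change of mt-Nd4l with copy was not fitted on this scale. Beside these results the marker lists of other cells also differed. The summed level of the 9 cardiomyocyte markers was 7561 to 24708 in the cKO RV against 34193 to 47913 TPM in WT RV. That of the 5 macrophage markers was 820 to 2320 against 170 to 368, and that of the 6 fibroblast markers 2355 to 5977 against 597 to 1292. None of these lists had a marker at 0. Their part in the lower mt- levels was not tested.

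**Figure D3:**
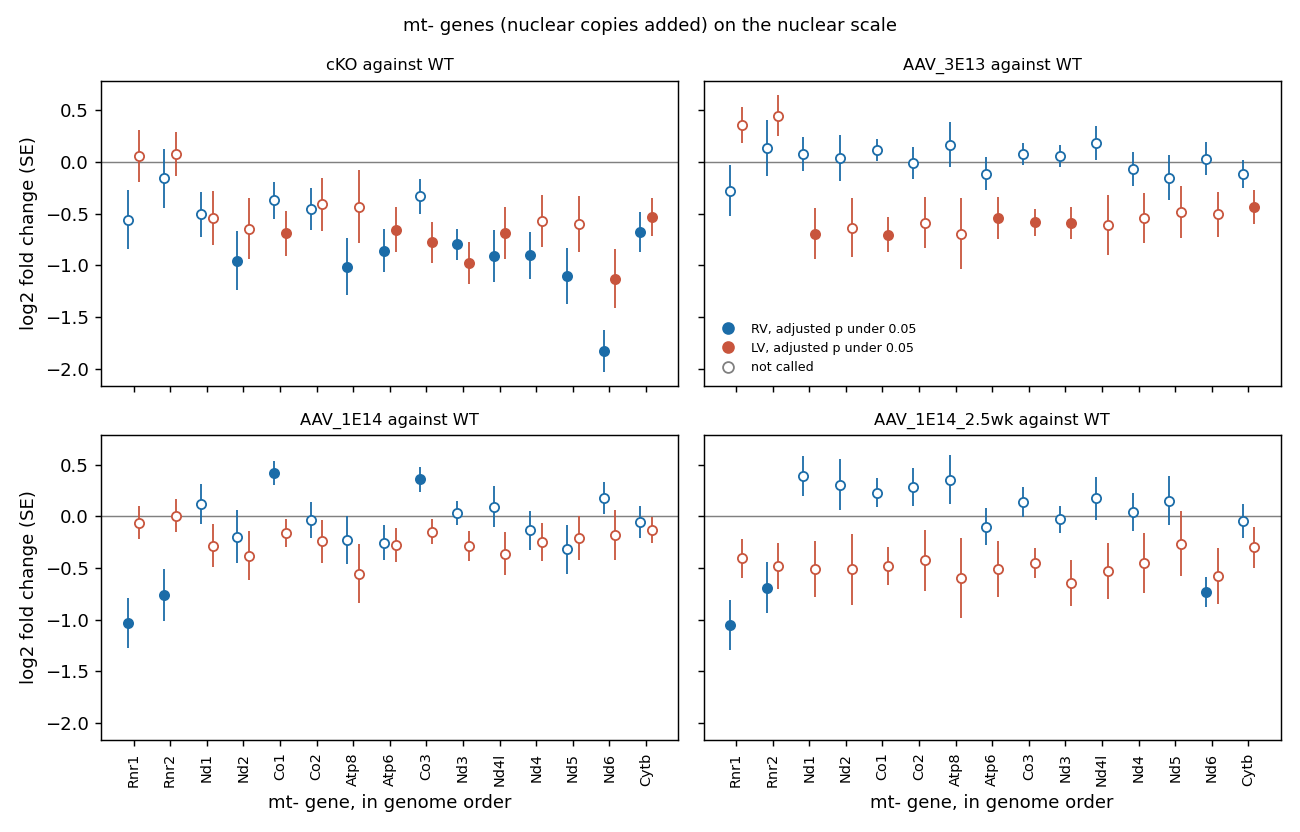
Log2 fold changes (points, SE as bars) of the 15 tested mt- genes with their nuclear copies added, in genome order, for each of the 4 groups against WT in the RV (blue) and LV (red), on the nuclear scale. Filled points have an edgeR adjusted p under 0.05. In cKO all 15 RV points lie below 0 with mt-Nd6 lowest at −1.83. In the 1E14 and 2.5wk RV the lowest points are mt-Rnr1 at −1.04 and −1.06. The scale of the mt- genes, fitted without copies, is not drawn here. On it several of the smaller differences, such as mt-Cytb in the cKO and 3E13 LV, change sign.

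In the LV, 6 of the 15 mt- genes were lower in cKO than in WT and none was higher, against 46.6% of 13861 genes called and 23% called lower (edgeR, 9 mt- genes lower by DESeq2). The median log2 fold change was −0.59 for the mt- genes and 0.05 for all genes. mt-Nd3, a small subunit of complex I, measured 2580, 3383, 3588 and 4631 with copy in the cKO LV against 4313 to 8968 (median 7321) in WT LV. Its own row changed by −0.98 ± 0.21 (edgeR adjusted p = 0.0016). mt-Nd6 measured 1409, 1717, 2221 and 2680 against 1966 to 5855 (median 4496), with the highest cKO libraries inside the WT range (−1.13 ± 0.29, adjusted p = 0.00493). mt-Co1 measured 134824, 165087, 181682 and 215178 against 186583 to 345290 (median 301082), and a single cKO library lay within the WT range (−0.69 ± 0.23, adjusted p = 0.0214).

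mt-Atp6 (−0.67, edgeR adjusted p = 0.0222), mt-Co2 (−0.68, adjusted p = 0.042) and mt-Cytb (−0.53, adjusted p = 0.0342, and 0.07 relative to the other mt- genes) were the other calls in the cKO LV. Without animal PKP2_HBSS_3213 only 2 mt- genes were called. mt-Atp6 and mt-Co1 were lost without that animal alone (adjusted p = 0.0676 and 0.0581), mt-Cytb without any 1 of 7 and mt-Co2 without any 1 of 8 of the 13 libraries (adjusted p up to 0.1 and 0.108). Counted with their copies, mt-Co3 (−0.78 ± 0.20, edgeR adjusted p = 0.00452) and mt-Nd4l (−0.68, adjusted p = 0.0369) were called and mt-Co2 was not (−0.41, adjusted p = 0.211). mt-Co3 with copy measured 30804, 33501, 41193 and 53310 in the cKO LV against 48225 to 81153 (median 71600) in WT LV, so 3 of the 4 cKO libraries lay below all WT libraries. The rRNAs stayed near WT on the nuclear scale (mt-Rnr1 0.06, mt-Rnr2 0.08, neither called) and were called higher relative to the other mt- genes (0.65 and 0.69). The sum of cardiomyocyte markers was 8103 to 25183 in the cKO LV against 45931 to 52528 in WT LV, that of macrophage markers 304 to 2824 against a WT median of 227 and that of fibroblast markers 1844 to 5218 against a WT median of 1093, and their part was not tested.

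In the 3E13 group mt- genes were called against WT in the LV only. Whether the difference from WT depended on the ventricle is given below as an interaction. In the RV no mt- gene was called against WT, against 21.7% of 13261 genes, 1 mt- gene had an unadjusted p under 0.05 in edgeR, and DESeq2 called none. In the LV 5 of 15 were called lower and none higher, against 39.1% of 13131 genes called and 19.3% called lower (6 lower by DESeq2), with a median log2 fold change of −0.53 against 0.05 for all genes. mt-Co1 measured 121900 to 263129 (median 166836) in the 3E13 LV against 186583 to 345290 (median 301082) in WT LV (−0.70 ± 0.17, edgeR adjusted p = 0.00345). mt-Nd3 with copy measured 3363 to 6859 (median 4587) against 4313 to 8968 (median 7321), and its own row changed by −0.67 ± 0.20 (edgeR adjusted p = 0.0125). The ranges of both overlapped, and both calls held without any single library.

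mt-Nd1, a core subunit of complex I, measured 14504 to 49813 (median 24614) in the 3E13 LV against 25752 to 53854 (median 48874) (−0.69 ± 0.25, edgeR adjusted p = 0.0351), and mt-Atp6 (−0.54, adjusted p = 0.0404, and 0.03 relative to the other mt- genes) and mt-Cytb (−0.43, adjusted p = 0.0452, and 0.13 relative to them) completed the calls. These 3 calls were weak: mt-Nd1 was lost without any 1 of 11, and mt-Atp6 and mt-Cytb without any 1 of 12, of the 17 libraries, with adjusted p up to 0.0698, 0.0807 and 0.0901, each without animal PKP2_m3e13_5809. The number of calls ran from 2 without animal WT_HBSS_13 to 10 without animal PKP2_m3e13_5759. With copies, mt-Co3 was called too (34737 to 59474, median 45430, against 48225 to 81153, median 71600; −0.58 ± 0.13, edgeR adjusted p = 0.00163). Relative to the other mt- genes the calls were of other genes: mt-Rnr1 (0.98), mt-Rnr2 (1.07) and mt-Co3 on its own row (0.88) were higher. The cardiomyocyte marker sum of the 3E13 LV, 26129 to 36550 TPM, lay below the whole WT LV range. The fibroblast sum, 1399 to 3055, lay above that of WT LV (893 to 1234). The macrophage sum, 267 to 595, overlapped WT LV (148 to 288). In the 3E13 RV the cardiomyocyte sum, 38868 to 51715, overlapped WT RV, as did the macrophage sum, 342 to 844, while the fibroblast sum, 1451 to 3180, lay above all WT RV libraries. Their part was not tested.

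In the 1E14 RV 4 mt- genes differed from WT, 2 upward and 2 downward, against 29.5% of 13503 genes called, 15.4% higher and 14.1% lower (edgeR; DESeq2 gave 2 and 2 as well). The median was −0.15 for the mt- genes and −0.06 for all genes. mt-Rnr1, the 12S rRNA, measured 4172, 4233, 5211, 5677 and 5934 against 5404 to 15650 (median 10422) in WT RV (−1.05 ± 0.24, edgeR adjusted p = 0.0046), with 3 of the 5 libraries below all WT libraries. mt-Rnr2, the 16S rRNA, measured 3765, 4999, 6155, 6247 and 6471 against 4536 to 15137 (median 10136) (−0.77 ± 0.25, adjusted p = 0.0301), a call lost without animals PKP2_m1e14_2034, PKP2_m1e14_2043 or PKP2_m1e14_5726 (adjusted p = 0.054, 0.0633 and 0.084). mt-Co1 measured 204232, 230594, 239105, 268042 and 281406 against 141638 to 224754 (0.41 ± 0.12, adjusted p = 0.0188), with 4 of the 5 libraries above all WT libraries, and its call was lost without animals PKP2_m1e14_2034 or PKP2_m1e14_5822 (adjusted p = 0.056 and 0.0614). mt-Nd4l was called on its own row (0.83, edgeR adjusted p = 0.0147, or 0.0586 without animal PKP2_m1e14_2034) and close to WT with its copy (0.09, adjusted p = 0.763), and mt-Co3 was called with its copy (0.36, adjusted p = 0.0334). The cardiomyocyte marker sum of the 1E14 RV, 54477 to 65786 TPM, lay above the whole WT RV range of 34193 to 47913. The fibroblast (1060 to 1367) and macrophage (286 to 366) sums overlapped WT RV. Their part was not tested.

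In the RV of the 2.5wk group 3 mt- genes were lower and none higher, against 36.3% of 13467 genes called and 18.5% lower (edgeR and DESeq2 alike). mt-Rnr1 measured 3645, 3774, 4296, 5007, 6019 and 7246 (−1.06 ± 0.24, edgeR adjusted p = 0.00276) and mt-Rnr2 3928 to 8688 (−0.69 ± 0.25, adjusted p = 0.0363), the latter lost without any 1 of 10 of the 15 libraries, animal PKP2_m1e14_2.5wk_5814 among them (adjusted p = 0.0784). mt-Nd6 measured 2728, 2803, 2885, 3251, 3271 and 4815 against 3967 to 7602 in WT RV (−0.73 ± 0.15, adjusted p = 0.00132), with 5 of the 6 libraries below all WT libraries. The median over the mt- genes was 0.15 against −0.02 over all genes. Beside this the marker sums of the 2.5wk RV were 1246 to 3899 TPM for fibroblasts (median 1853, against 1126 in WT RV), 270 to 505 for macrophages (median 433, against 254) and 43191 to 57167 for cardiomyocytes (median 45503, against 38123). All 3 overlapped WT RV. Their part was not tested.

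In the LV neither 1E14 group held a called mt- gene. For the 1E14 group 0.0075% of 13342 genes were called (1 gene by edgeR and 6 by DESeq2), no mt- gene had an unadjusted p under 0.05 and DESeq2 called none of them. For the 2.5wk group 1.44% of 13289 genes were called, 4 mt- genes had an unadjusted p under 0.05 and DESeq2 called none. The medians of the 15 genes were −0.21 and −0.48 against 0.00 and 0.01 for all genes.

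Set against cKO, the RV of each vector group had higher mt- levels. In the 3E13 RV 11 of 15 genes were higher and none lower, with 42.1% of 14066 genes called and 19.4% higher. In the 1E14 RV 11 were higher, with 50.7% of 13723 called and 24.3% higher, and in the 2.5wk RV 12, with 47.9% of 13926 called and 22.7% higher. DESeq2 called 12 higher in each, and 1 lower in the 1E14 RV. The medians over the mt- genes were 0.77, 0.70 and 0.85, against −0.05, −0.06 and −0.08 over all genes. These 3 comparisons share the same 4 cKO libraries and are not independent of each other, and cKO hearts were collected at another time. The cardiomyocyte marker sums of the 3 vector groups, given above, lay above those of the cKO RV (7561 to 24708 TPM) without overlap. Their part was not tested.

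mt-Nd6 was higher by 1.88 ± 0.26 in the 3E13 RV (edgeR adjusted p = 9.59e-05), 2.05 ± 0.24 in the 1E14 RV (adjusted p = 6.55e-05) and 1.13 ± 0.21 in the 2.5wk RV (adjusted p = 0.00123). Its levels, 3155 to 7608 (median 5797) in the 3E13 RV and 4091, 6022, 6485, 6493 and 7726 in the 1E14 RV, lay above every cKO value. mt-Nd4l with copy was higher by 1.11, 1.05 and 1.12, mt-Atp8 by 1.20, 0.83 and 1.40, mt-Nd2 by 1.01, 0.80 and 1.29 and mt-Nd5 by 0.97, 0.83 and 1.29 in the same order. mt-Co1, the most abundant, was higher by 0.50, 0.83 and 0.63 and its difference was −0.09 in the 3E13 RV and −0.08 in the 2.5wk RV relative to the other mt- genes. The call of mt-Co1 in the 2.5wk RV was lost without any 1 of 8 of the 10 libraries, animal PKP2_m1e14_2.5wk_5814 among them (edgeR adjusted p = 0.0763), that in the 3E13 RV without animals PKP2_m3e13_2045, PKP2_HBSS_2052 or PKP2_HBSS_3217 (adjusted p = 0.0509, 0.0581 and 0.0632). mt-Nd1 was lost in the 3E13 RV without animals PKP2_HBSS_2052 or PKP2_HBSS_3217 (adjusted p = 0.0515 and 0.0653). In the 1E14 RV the call of mt-Co2 was lost without any 1 of 7 and that of mt-Nd1 without any 1 of 4 of the 9 libraries (edgeR adjusted p up to 0.096 and 0.0625). mt-Co2 was not called with its copy (edgeR adjusted p = 0.0744). In the 2.5wk RV mt-Cytb lost its call without animal PKP2_m1e14_2.5wk_5755 (edgeR adjusted p = 0.0502). The rRNAs were not called in any of the 3.

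In the LV fewer mt- genes were called against cKO. The 1E14 LV had 2 mt- genes higher, against 35.4% of 13617 genes called and 17.3% higher: mt-Nd6 (0.92, edgeR adjusted p = 0.0207) and mt-Nd3 (0.64, adjusted p = 0.0457, lost without any 1 of 7 of the 9 libraries, adjusted p up to 0.102). DESeq2 called 3 mt- genes there. The 3E13 LV and the 2.5wk LV had none called by edgeR, against 18% of 13979 and 33.3% of 13783 genes, 1 mt- gene in each had an unadjusted p under 0.05, and DESeq2 called 0 and 1 (mt-Nd4l).

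Between the vector groups few mt- genes were called, which does not show that their levels were alike. The mean rRNA share of mt- counts was 2.37% in the 1E14 RV and 4.55% in the 3E13 RV. In the LV it was 2.59 and 4.59%, and this share was not tested between the doses. Between the doses no mt- gene was called in the RV (9.97% of 13471 genes called) or in the LV (19% of 13544), with 3 and 1 mt- genes at an unadjusted p under 0.05 in edgeR and 3 and 1 called by DESeq2. Between the 2.5wk and the 1E14 group the RV had 1 mt- gene called, mt-Nd6, lower by 0.89 on the log2 scale (SE 0.17, edgeR adjusted p = 0.00992), against 8.89% of 13268 genes called and 3.93% lower, and this call held without any single library. Its values were 2728 to 4815 in the 2.5wk RV against 4091 to 7726 in the 1E14 RV, with 1 library of the 2.5wk RV above the lowest of the 1E14 RV. In the LV 0% of 13249 genes were called between these groups, mt- genes included, none of which had an unadjusted p under 0.05 or was called by DESeq2.

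**Figure D4:**
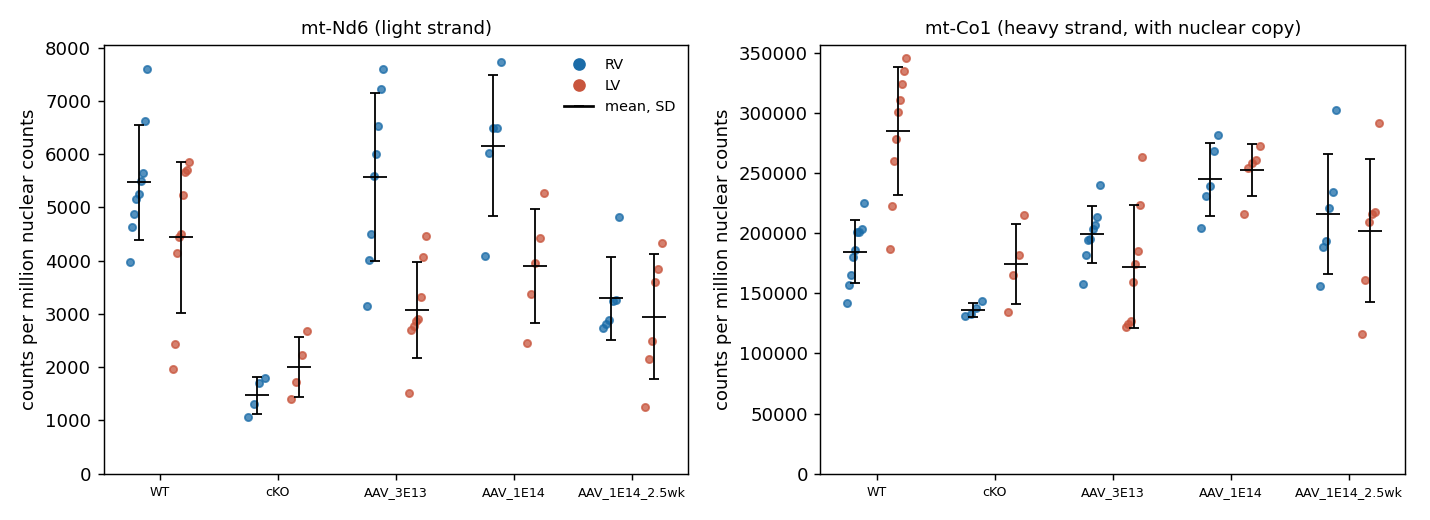
Levels of mt-Nd6 (light strand) and of mt-Co1 with its nuclear copy, in CPM, in each of 64 libraries by group and ventricle (RV blue, LV red), with mean and SD in black. The cKO RV points of mt-Nd6 (1059 to 1793 CPM) lie below every WT RV point, 5 of the 6 points of the 2.5wk RV lie between them, and for mt-Co1 the WT LV has the highest mean.

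Within the hearts the ventricles were compared with each other. In WT 1 mt- gene was higher and 10 lower in the RV than in the LV, against 27.8% of 12985 genes called, 12.3% higher and 15.5% lower, and the median was −0.50 against 0.03. Among the complex I genes, mt-Nd2 measured 6129 to 19526 (median 10780) in the RV and 13437 to 32420 (median 26658) in the LV (−0.96, edgeR adjusted p = 0.00566), and mt-Nd5 13246 to 34370 (median 21571) and 22108 to 54136 (median 42850) (−0.77, adjusted p = 0.0102). mt-Nd1 (−0.92, adjusted p = 0.00152), mt-Nd4 (−0.73, adjusted p = 0.0135), mt-Co1 (−0.63, adjusted p = 0.000724) and mt-Atp8 (−0.95, adjusted p = 0.00899) were lower too. The ranges of both ventricles overlapped for mt-Nd2, mt-Nd5, mt-Nd1, mt-Nd4, mt-Co1 and mt-Atp8.

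The remaining calls in WT were less firm. mt-Atp6 (−0.53), mt-Co2 (−0.50), mt-Cytb (−0.38) and mt-Nd3 (−0.34) lost theirs without any 1 of 3, 4, 5 and 7 of the 9 animals (edgeR adjusted p up to 0.0598, 0.0982, 0.124 and 0.137), and all 4 were higher in the RV relative to the other mt- genes (0.05, 0.05, 0.18 and 0.26). With copies mt-Co3 (−0.43, edgeR adjusted p = 0.00716) and mt-Nd4l (−0.57, adjusted p = 0.0338) were lower as well. mt-Rnr1 was the gene higher in the RV (0.76, adjusted p = 0.00625), at 5404 to 15650 against 4189 to 7312 in the LV. mt-Nd6 did not pass (0.30, adjusted p = 0.243). With the animal as a block 2 genes were called higher and 8 lower. The cardiomyocyte marker sum was also lower in the WT RV (34193 to 47913 TPM, median 38123) than in the WT LV (45931 to 52528, median 47515), with some overlap. The median of the endothelial sum was 619 in the RV and 462 in the LV. Their part was not tested.

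In the other groups fewer mt- genes were called between ventricles. In cKO none was called by edgeR, against 0.00725% of 13784 genes (1 gene, 19 by DESeq2), although 7 mt- genes had an unadjusted p under 0.05 and DESeq2 called 6 lower. In the 3E13 group 2 were higher in the RV, against 20.1% of 13250 genes called and 10.7% higher: mt-Nd6 (0.84 ± 0.21, edgeR adjusted p = 0.00922), at 3155 to 7608 in the RV against 1507 to 4463 in the LV, and mt-Nd4l on its own row only (1.08, adjusted p = 0.02, lost without any 1 of 3 of the 8 animals at adjusted p up to 0.0736, and 0.22, adjusted p = 0.626, with its copy). In the 1E14 group mt-Nd5 was lower (−0.89, adjusted p = 0.0489, lost without any 1 of 4 of the 5 animals, adjusted p up to 0.198), against 2.95% of 12962 genes called and 1.54% lower, and with the animal as a block 3 mt- genes were lower. In the 2.5wk group no mt- gene was called or had an unadjusted p under 0.05, against 0.0226% of 13292 genes, and DESeq2 called none.

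Whether the difference from WT depended on the ventricle was tested as an interaction. For cKO no mt- gene was called, against 0.0272% of 14728 genes, with 1 mt- gene at an unadjusted p under 0.05 in edgeR and none called by DESeq2. For 3E13 the RV difference exceeded the LV difference in 3 mt- genes, against 36.9% of 13998 genes called and 18.8% in that direction: mt-Co1 by 0.83 (edgeR adjusted p = 0.00123), mt-Nd3 by 0.74 (adjusted p = 0.0113) and mt-Nd4l by 1.02 (adjusted p = 0.0419, and 0.0669 with its copy; lost without any 1 of 11 of the 17 animals). For 1E14 mt-Co1 was higher (0.57, adjusted p = 0.0235, lost without animals PKP2_m1e14_2043 or PKP2_m1e14_5822 at 0.063 and 0.0588) and mt-Rnr1 lower (−0.98, adjusted p = 0.0182, lost without animals PKP2_m1e14_2043 or PKP2_m1e14_5726 at 0.0881 and 0.0686), against 19.9% of 14081 genes called, 11.3% higher and 8.59% lower. For the 2.5wk group mt-Co1 was higher (0.74, adjusted p = 0.0249), against 18.4% of 14110 genes called and 10.7% higher, and this call was lost without animals WT_HBSS_2040, PKP2_m1e14_2.5wk_5755 or PKP2_m1e14_2.5wk_5801 (adjusted p = 0.0516, 0.0733 and 0.0765). The 3 vector interactions share the WT libraries, whose LV had the highest mean level of mt-Co1 of all groups (284758).

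The share of mt- counts on the light strand, to which mt-Nd6 alone contributed since all 8 light-strand tRNAs were at 0, followed the same pattern within the mt- genes alone. It was 0.834 to 1.78% in WT RV (median 1.42%) and 0.425, 0.485, 0.605 and 0.668% in cKO RV, without overlap, a difference of −0.814 percentage points (two-sided exact permutation test, adjusted p = 0.0101 over 39 composition tests, at the smallest p these group sizes allow). In the 2.5wk RV it was 0.608 to 0.867% (median 0.736%), and the mean was −0.624 percentage points from WT RV (exact permutation test, adjusted p = 0.0101, and 0.0195 without animal PKP2_m1e14_2.5wk_5814). In the 1E14 RV, at 0.919, 1.27, 1.36, 1.57 and 1.90%, and the 3E13 RV, at 0.859 to 1.78%, it overlapped WT RV. The RV was above the LV by 0.652 percentage points in WT, where the LV lay at 0.494 to 0.890% (exact permutation test, adjusted p = 0.00267), and by 0.570 in the 3E13 group (exact permutation test, adjusted p = 0.0101), and both passed with the animal as a block (exact permutation test, adjusted p = 0.0305 and 0.0435). In cKO the means of RV and LV, 0.546 and 0.521%, differed by less than the spread between mice. Heavy-strand RNA runs opposite mt-Nd6, and mt-Nd5 overlaps its end by 14 bases. The total RNA kit named in the sources is stranded, but the strand setting of the quantification is not given there. Whether reads of both strands within mt-Nd6 were told apart is therefore not known.

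The rRNA share of mt- counts separated the groups in another way. In the RV it was 2.50 to 7.15% in WT (median 5.02%), 4.30, 5.22, 5.64 and 6.70% in cKO and 2.29 to 8.28% in the 3E13 group, and only 2.06, 2.28, 2.34, 2.45 and 2.70% in the 1E14 group and 2.19 to 2.60% in the 2.5wk group. The mean was −2.52 percentage points from WT in the 1E14 RV (exact permutation test, adjusted p = 0.0438) and −2.50 in the 2.5wk RV (exact permutation test, adjusted p = 0.0267, and 0.0463 without animal PKP2_m1e14_2.5wk_5814). The first of these was lost without any 1 of 9 of the 14 libraries (exact permutation test, adjusted p up to 0.0682). In the LV the share was 1.60 to 2.97% in WT (median 2.33%) and 2.35 to 7.64% in the 3E13 group, higher by 2.35 percentage points (exact permutation test, adjusted p = 0.00267), and in cKO it was 2.16, 2.92, 4.06 and 5.19% (a difference of 1.34, exact permutation test, adjusted p = 0.0709). Within WT the RV exceeded the LV by 2.64 percentage points (exact permutation test, adjusted p = 0.00267, and 0.0305 with the animal as a block).

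Rpph1, the nuclear RNA component of ribonuclease P and not polyadenylated, moved in several of the same comparisons. It was higher in the RV than the LV of WT (1.02, edgeR adjusted p = 0.0072), at 537 to 1494 against 229 to 974 CPM, higher in the 3E13 LV than in WT LV (1.06, adjusted p = 0.0137) and lower in the 1E14 RV (−1.08, adjusted p = 0.00153) and 2.5wk RV (−0.88, adjusted p = 0.00698) than in WT RV. It was also lower in the 3E13 RV (−0.90, adjusted p = 0.00385), where the rRNA share did not pass, and higher in cKO in the RV (1.31, adjusted p = 0.00016) and LV (1.62, adjusted p = 0.00404). The sources name both a polyA protocol and a total RNA kit with rRNA removal, and how far RNA selection or rRNA removal differed between libraries was not tested.

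**Figure D5:**
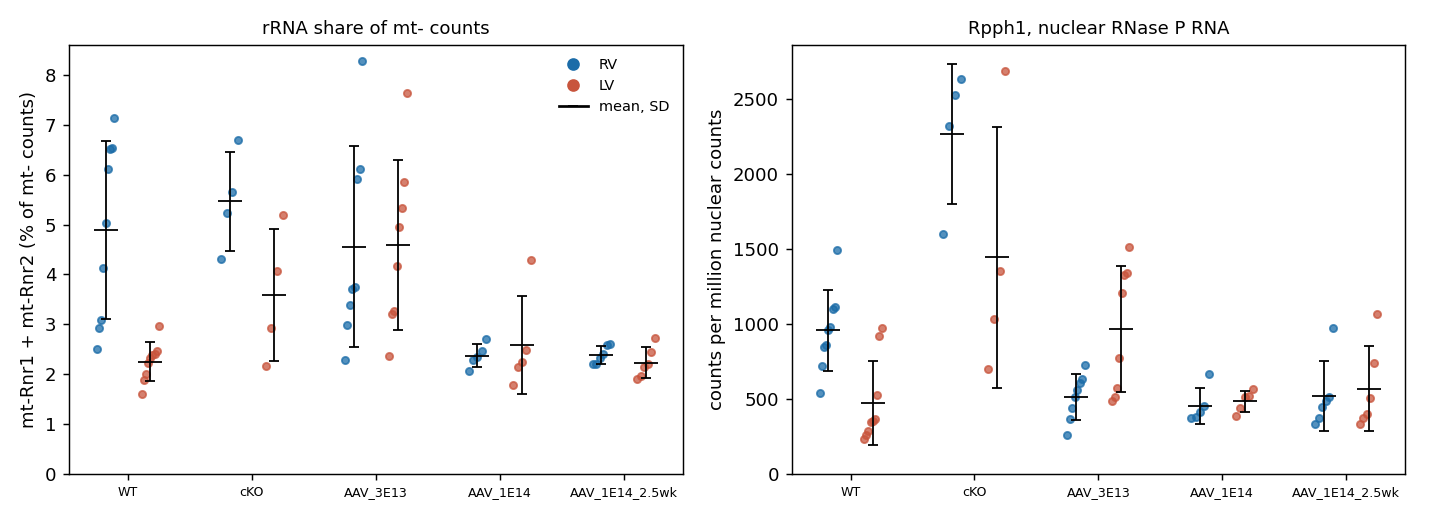
Share of mt- counts on mt-Rnr1 and mt-Rnr2 (percent) and level of Rpph1 (CPM) in each of 64 libraries by group and ventricle (RV blue, LV red), with mean and SD in black. The rRNA share of the 1E14 and 2.5wk RV libraries lies between 2.06 and 2.70% and that of the WT RV libraries between 2.50 and 7.15%, and the cKO RV libraries are the highest as a group for Rpph1 (1597 to 2633).

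Nuclear genes that serve mitochondrial DNA and its RNAs were read from 4 lists. In the cKO RV 6 of 19 tested genes of transcription and replication of mitochondrial DNA were lower and none higher (median −0.27), 13 of 33 genes of mitochondrial RNA processing, modification and decay were lower and 3 higher (−0.31), 9 of 22 mitochondrial aminoacyl-tRNA synthetase genes were lower and none higher (−0.35) and 8 of 12 genes of translation factors and membrane insertion were lower and none higher (−0.59), beside a median of 0.02 and 20.4% lower calls over all genes. Among them were Tfb2m, the transcription initiation factor (−1.10, edgeR adjusted p = 2.18e-05), Tefm, the elongation factor (−0.97), Lrpprc, which stabilises mitochondrial mRNAs (−1.17, adjusted p = 0.000167), Grsf1, an RNA granule protein (−0.97, adjusted p = 6.19e-05), Fastkd1 (−0.97) and Fastkd2 (−0.93), RNA-binding proteins of the FASTK family, Gatb, a subunit of the glutamyl-tRNA amidotransferase (−0.89), and the elongation factor Gfm1 (−1.04). The genes higher in the cKO RV were the pseudouridine synthase gene Pus1 (0.90), the oligoribonuclease gene Rexo2 (0.46) and the tRNA modification gene Gtpbp3 (0.45), named after their values were seen.

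In the cKO LV the same lists had 6 of 19 lower and 3 higher (median −0.09), 17 of 34 lower (−0.61), 11 of 22 lower (−0.42) and 10 of 12 lower (−1.07), beside a median of 0.05 and 23% lower calls over all genes. In the 3E13 LV they had 6 of 19 lower and 2 higher (−0.09), 17 of 33 lower (−0.38), 11 of 22 lower (−0.34) and 10 of 12 lower (−0.60), beside a median of 0.05 and 19.3% lower calls over all genes. Tfam, which packages mitochondrial DNA and acts in its transcription, was lower in the 3E13 LV (−0.65, edgeR adjusted p = 1.64e-05), as were Lrpprc (−0.85, adjusted p = 3.7e-06), Grsf1 (−0.97) and Gfm1 (−0.96). The higher genes, named after their values were seen, were Polg2 (0.94), the accessory subunit of the mitochondrial DNA polymerase, the topoisomerase gene Top3a (0.69) and the primase gene Primpol (0.81) in the cKO LV and Polg2 (0.72) and Top3a (0.39) in the 3E13 LV.

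In the RV of the vector groups 19, 33, 22 and 12 genes of the lists were tested, in the order above. Higher and lower calls were 1 and 2, 9 and 1, 2 and 3, and 0 and 0 in the 3E13 RV, where 21.7% of all genes were called. They were 5 and 2, 11 and 1, 5 and 0, and 6 and 1 in the 1E14 RV, where 15.4% of all genes were called higher and 14.1% lower. In the 2.5wk RV, where 36.3% of all genes were called and 18.5% lower, they were 3 and 3, 8 and 3, 1 and 4, and 5 and 0. In the LV of the 1E14 and 2.5wk groups no gene of the lists was called by edgeR.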

How the data were processed

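RNA-seq was run on RV and LV of 32 mice. The authors trimmed paired 50-base reads with fastp 0.23.3 and quantified them with Salmon 1.8.0 on GENCODE M30 (GRCm39), and deposited per gene the estimated counts, the TPM values and the effective lengths from tximport. The labels name both a polyA protocol and a total RNA kit with rRNA removal. Salmon divides reads that fit several transcripts, so the division between a mitochondrial gene and its nuclear copy is an estimate, and the strand setting is not given in the sources used here. The authors' own analysis left mitochondrial genes out.

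Estimated counts were rounded to whole numbers and 1 row without a name was dropped. Library sizes and TMM factors came from rows other than mt- genes, the nuclear copies included. Genes kept by filterByExpr were tested with edgeR 4.0.16 (glmQLFit, glmQLFTest, R 4.3.3), Benjamini-Hochberg over all genes tested, threshold 0.05, fitting only the groups compared. Interactions between group and ventricle were fitted on the 4 sets of libraries concerned. Shares of counts, 1 value a library, were compared by two-sided exact permutation tests of the means, adjusted over the tests of a measure (23 for the mt- share, 39 for composition). Fits were tested on simulated data. Pairs of libraries within a group (190) all differed by more than sampling noise. Within a ventricle p-values measure the spread between mice. Main tests between ventricles and of interactions entered both ventricles of a mouse as separate libraries, without pairing them.

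Alternatives were DESeq2 1.42.0, scales from all rows or from the mt- total, no filter, effective lengths as an offset, an unequal-variance test on log2(TPM + 1), TPM shares, protein-coding genes only, each library left out and the animal as a block. Both ventricles of an animal share its number in the labels, which pairs them. Over 15313 genes the deviations of an animal's ventricles from their group means had a median correlation of 0.11 (−0.03 to 0.52, over 0.1 in 18 of 32 animals).

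Members, gene lists and tests were chosen with earlier results of these data known. Named were the 13 protein-coding and 2 rRNA genes, the 3 tRNA genes with the highest mean count, and up to 4 genes of each nuclear list with the smallest p in cKO against WT in the RV or in 3E13 against WT in the LV, of which the text gives some. The marker lists of atrial, endothelial, smooth muscle, Schwann, adipocyte and erythroid cells summed to at most 3511, 752, 260, 21.0, 7.16 and 77.7 TPM in any library. Near-identical copies were found by aligning all transcripts of a later GENCODE release than that of the quantification to the mitochondrial genome. An identity of at least 99% over at least 90% of the transcript was required, and copies outside annotated transcripts could not be found. Of the list symbols, 7 were matched through RefSeq synonyms.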

Additional observations from a re-analysis of the deposited data

Results flagged for a closer look

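In 180 groups of 4 to 9 libraries the highest or lowest library was set against the others by Dixon's ratio, and 16 values from 7 libraries stood apart, where chance alone flags about 1 in 20 groups. The LV library of PKP2_m1e14_2043 had an rRNA share of mt- counts of 4.29%, against 1.78 to 2.49% in the other 4 of its group, and was the lowest of the 1E14 LV in 6 genes, with log2 CPM (counts per 1000000 nuclear counts) of 14.69 for mt-Atp6, 10.63 for mt-Atp8, 14.93 for mt-Cytb, 13.57 for mt-Nd2, 15.44 for mt-Nd4 and 14.31 for mt-Nd5. In the 1E14 RV the library of PKP2_m1e14_5726 had 23.8% of its counts on mt- genes, against 29.5 to 31.1% in the others, and the lowest mt-Nd2 (12.60) and mt-Nd5 (13.44). In the 3E13 RV the library of PKP2_m3e13_5768 had 22.9% of its counts on mt- genes, against 28.6 to 33.5%, and the lowest mt-Nd3 (11.99).

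Single values stood apart in 4 more libraries. They were mt-Atp6 in the LV of PKP2_HBSS_3213 (14.34), mt-Nd3 in the LV of PKP2_m1e14_2.5wk_5810 (10.70), mt-Nd6 in the RV of PKP2_m1e14_2.5wk_5801 (12.23) and mt-Nd6 in the LV of PKP2_m3e13_2033 (10.56).

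The difference from WT depended on the ventricle in 6 tests of 4 genes by the interaction term of edgeR's quasi-likelihood fit, RV minus LV on the log2 scale: mt-Co1 by 0.83, mt-Nd3 by 0.74 and mt-Nd4l by 1.02 in the 3E13 group, mt-Co1 by 0.57 and mt-Rnr1 by −0.98 in the 1E14 group and mt-Co1 by 0.74 in the 2.5wk group. The 3 differences in mt-Co1 share the WT libraries and are not independent.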

How the results depend on the processing

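In the RV the lower mt- genes of cKO against WT numbered 10 and lay between 7 and 12 under every alternative other than the mt- scale. Over all comparisons, 153 of 198 counts of called mt- genes stayed within 1.5 times the main count under the alternatives that keep all libraries, and 272 of 319 did with 1 library or animal left out. Of the log2 fold changes of called mt- genes, 462 of 615 kept their direction and call, 137 kept the direction and lost the call, and 16 changed direction, all on the scale set by the mt- total. With 1 library or animal left out 834 of 988 kept their call and 154 lost it. The tRNAs were at or near 0 at totals of 7962690 to 14554560 counts per library. The tRNA genes are 59 to 75 bases long, and how far the libraries captured RNA this short was not tested. Groups of 4 to 9 mice limit the small differences. The cause of each change below was not tested.

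On the scale set by the mt- total, called mt- genes went from 10 to 4 in cKO against WT in the RV and from 6 to 2 in the LV, from 5 to 3 in 3E13 against WT in the LV, from 11 to 5, 11 to 5 and 12 to 7 in 3E13, 1E14 and 2.5wk against cKO in the RV, and from 2 to 0 in 1E14 against cKO in the LV. Between RV and LV they went from 11 to 7 in WT, from 2 to 1 in 3E13 and from 1 to 5 in 1E14, and from 1 to 4 in the 2.5wk interaction. The log2 fold changes that changed direction there were mt-Cytb in cKO against WT in the LV (0.0701), mt-Atp6 (0.0259) and mt-Cytb (0.131) in 3E13 against WT in the LV, mt-Co1 (−0.0877), mt-Cytb (−0.0196) and mt-Nd1 (−0.0069) in 3E13 against cKO in the RV, mt-Atp6 (−0.0266), mt-Co2 (−0.173), mt-Cytb (−0.0570) and mt-Nd1 (−0.0678) in 1E14 against cKO in the RV, mt-Co1 (−0.0842) and mt-Cytb (−0.0514) in 2.5wk against cKO in the RV, and mt-Atp6 (0.0477), mt-Co2 (0.0531), mt-Cytb (0.18) and mt-Nd3 (0.257) in RV against LV of WT. A scale from all rows moved RV against LV in 1E14 from 1 to 0.

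By DESeq2 the counts rose to 1 in 2.5wk against cKO in the LV, to 3 and 1 between the doses in RV and LV and to 6 in RV against LV of cKO (each 0 by edgeR), and from 1 to 7 in RV against LV of 1E14 and from 1 to 2 in the 2.5wk interaction. The ventricles of a mouse share the animal, and with the animal as a replicate block the count was 3 in RV against LV of 1E14 and 2 in the 2.5wk interaction, where the unblocked fit gave 1 in each. The block moved no other count by more than 1.5 times and changed no called composition share, though it left RV against LV of the rRNA and light strand shares at an adjusted p of 0.0305 in WT (exact permutation test). With the effective length as an offset 3E13 against WT in the RV had 1 call in place of 0.

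Without a filter on low counts the calls went from 4 to 2 in 1E14 against WT in the RV, from 6 to 2 in cKO and from 5 to 1 in 3E13 against WT in the LV, from 11 to 7 and 11 to 6 in 3E13 and 1E14 against cKO in the RV, from 11 to 6 and 1 to 0 in RV against LV of WT and 1E14, and from 3 to 1, 2 to 1 and 1 to 0 in the interactions of 3E13, 1E14 and 2.5wk. A test allowing unequal variances on log2(TPM + 1), with TPM rescaled to the sum of the rows other than mt- genes, gave 1 in 1E14 against WT in the RV, 0 in cKO and 3 in 3E13 against WT in the LV, 6 and 1 in 1E14 against cKO in RV and LV, 0 in 2.5wk against 1E14 in the RV, 1 between the doses in the LV, 5, 1 and 0 in RV against LV of WT, 3E13 and 1E14, and 1 and 0 in the interactions of 1E14 and 2.5wk.

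Adding the nuclear copies to their genes, chosen after the data were seen, left 1 call in RV against LV of 3E13 and 2 in the 2.5wk interaction, and turned the difference in mt- share to 0.166 percentage points in 1E14 against WT in the RV and 0.247 in RV against LV of 3E13, neither of which passed its test. Protein-coding genes alone gave 0.00132 in the first of these. As a share of TPM the difference passed at −13.8 in cKO against WT, 15.4 in 3E13 and 15.9 in 2.5wk against cKO, all in the RV, and −6.50 in RV against LV of WT, and it turned, without passing, to 0.412 in 1E14 against WT in the RV, 1.96 and 3.22 in 3E13 and 2.5wk against cKO in the LV and 1.24 in RV against LV of 3E13. The rRNA share of 2.5wk against WT in the LV turned to 0.00483 and the tRNA share of RV against LV of 1E14 to 0.000205.

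With 1 library or animal left out, the counts of called mt- genes ranged from 0 to 1 (3E13 against WT in the RV), 1 to 4 (1E14 against WT in the RV), 2 to 7 (cKO against WT in the LV), 2 to 10 (3E13 against WT in the LV), 0 to 1, 1 to 2 and 0 to 1 (3E13, 1E14 and 2.5wk against cKO in the LV), 0 to 2 and 0 to 1 (between the doses in RV and LV), 7 to 11, 1 to 2 and 0 to 5 (RV against LV of WT, 3E13 and 1E14) and 2 to 6, 0 to 3 and 0 to 4 (interactions of 3E13, 1E14 and 2.5wk). The differences in mt- share that changed sign, none of which passed its test, ranged from −0.589 to 1.07, −1.24 to 0.749 and −0.774 to 1.48 (3E13, 1E14 and 2.5wk against WT in the RV), −0.413 to 2.69 and −4.30 to 0.381 (1E14 and 2.5wk against cKO in the LV), −1.59 to 0.631 (1E14 against 3E13 in the RV), −0.354 to 2.01 (2.5wk against 1E14 in the RV), and −1.56 to 1.10 and −1.60 to 2.84 (RV against LV of 3E13 and 2.5wk).

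The rRNA share ranged from −2.82 to −2.24 in 1E14 against WT in the RV, where 9 omissions lost the call, and from 0.80 to 1.81 in cKO against WT in the LV, where 1 omission gained it. The rRNA differences that changed sign ranged from −0.0830 to 0.543 and −0.119 to 0.0708 (1E14 and 2.5wk against WT in the LV) and −0.776 to 0.556 and −0.447 to 0.277 (RV against LV of 3E13 and 1E14), those of the light strand from −0.0838 to 0.0509 and −0.0810 to 0.163 (3E13 and 1E14 against WT in the RV), −0.0736 to 0.123 and −0.0823 to 0.0692 (1E14 and 2.5wk against WT in the LV), and −0.0591 to 0.0874 and −0.0315 to 0.115 (RV against LV of cKO and 2.5wk), and those of the tRNAs from −3.76e-05 to 2.34e-05 and −1.40e-05 to 1.78e-05 (3E13 and 1E14 against WT in the RV) and −1.40e-05 to 2.00e-05 (RV against LV of 1E14).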
